A study of Homo sapiens with 8 samples.

Results

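Selective autophagy receptors are proteins that carry chosen cargo into the autophagosome, the double membrane that delivers it to the lysosome. The members described here were chosen by name: the 8 receptor genes SQSTM1, OPTN, TAX1BP1, NBR1, CALCOCO1, CALCOCO2, NCOA4 and TOLLIP, the adaptor WDFY3 and the kinase TBK1, which make 10 of the 60606 genes in the table. All 10 passed the filter on low counts, as did 17184 genes in all. RNA was measured in HEK293, a long-established human line of embryonic kidney origin that was bought from a cell bank. One group of 4 libraries came from cells transfected with a mimic of tRNA-Asp-GTC-3'tDR, a fragment from the 3' end of a transfer RNA (tDR stands for tRNA-derived RNA). The other group of 4 came from cells given a scrambled control mimic. Both groups received their mimic at 50 nM with the lipid Lipofectamine RNAiMax and were collected 48 hours later, so the lipid and a foreign small RNA are shared by all libraries. The comparison asked which of these genes respond to the tDR, in a series whose title is about RNA autophagy. Nothing in the labels says whether the libraries are of separate cultures, and the p-values then measure only a spread between these 8 libraries that may be technical.

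In textbook terms a receptor holds its cargo, often through ubiquitin chains, and holds an ATG8 protein such as LC3B on the growing membrane through a short motif. p62 (the product of SQSTM1) and NBR1 gather ubiquitin-tagged protein into condensates. Optineurin (OPTN) and NDP52 (CALCOCO2) take up damaged mitochondria and bacteria, and TBK1 phosphorylates optineurin and p62 and strengthens their binding. NCOA4 brings the iron store ferritin to the lysosome. The receptors are themselves degraded with their cargo, so the level of an mRNA does not give the level of its protein, which was not measured here.

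Total counts ran from 6536554 to 10557740 in the control libraries and from 5848305 to 9237986 in the tDR libraries. All 10 genes listed as known in HEK293 cells or embryonic kidney reached 1 CPM (counts scaled to a common library size), with a summed level of 909.8 to 973.5 CPM in controls and 814.3 to 874.3 CPM with the tDR. Markers of other cells were low: 5 leukocyte genes summed to 3.17 to 5.14 CPM in controls and 3.22 to 5.66 CPM with the tDR, 4 endothelial genes to 10.4 to 13.2 and 16.1 to 19.7 CPM, 4 fibroblast genes to 1.18 to 3.02 and 2.31 to 5.20 CPM, and 4 hepatocyte genes to 2.23 to 2.45 and 3.39 to 5.57 CPM. The 5 genes of the mature kidney tubule summed to 46.4 to 59.8 and 48.2 to 55.7 CPM. Most of that sum was LRP2, at 49.8 ± 5.20 CPM in controls and 47.6 ± 4.08 CPM with the tDR (SD, n = 4). SLC34A1 was at 0.748 and 2.33 CPM, and AQP2 at 0 counts in all libraries. Background per kb was read from counts in 386 olfactory receptor genes, which are not known to be active in kidney-derived cells. It was 1.55 times as high in the tDR libraries as in controls. Estimated this way, background made up at most 2.54% of any member's counts in controls and 4.06% with the tDR, both in WDFY3, the longest gene. The part of these marker and background differences in the results was not tested beyond subtraction of that background.

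The 250 bases before the transcription start are shown for 3 members, OPTN and SQSTM1, whose mRNA was higher, and TAX1BP1, whose mRNA was lower, because these are the DNA next to the starts of the mRNAs that differed. The sequences are from RefSeq on GRCh38.p14, where 8 of the 10 members were found, all but CALCOCO1 and WDFY3. Each is read 5′ to 3′ on the plus strand, and the window with the most annotated transcript starts was taken. Capitals mark matches, on either strand, to 6 motifs: GGGANNTTC (NF-kB), TGACNNNGC (NRF2), CACGTG (the core bound by TFEB and other E-box factors), TGANTCA (AP-1), CCGGAAG (ETS factors) and TGACG (a cAMP response element core, which can overlap the NRF2 motif).
OPTN, chr10:13099913-13100162: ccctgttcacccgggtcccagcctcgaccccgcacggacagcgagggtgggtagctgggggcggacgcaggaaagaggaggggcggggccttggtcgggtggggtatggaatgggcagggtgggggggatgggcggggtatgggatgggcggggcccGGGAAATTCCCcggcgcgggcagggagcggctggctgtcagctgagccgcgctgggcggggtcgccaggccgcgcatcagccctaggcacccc
SQSTM1, chr5:179820655-179820904: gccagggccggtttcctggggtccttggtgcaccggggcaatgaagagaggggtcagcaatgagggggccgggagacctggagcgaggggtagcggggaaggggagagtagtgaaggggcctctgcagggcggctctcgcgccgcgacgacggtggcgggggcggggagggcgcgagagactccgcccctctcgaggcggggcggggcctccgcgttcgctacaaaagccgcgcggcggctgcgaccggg
TAX1BP1, chr7:27739912-27740161: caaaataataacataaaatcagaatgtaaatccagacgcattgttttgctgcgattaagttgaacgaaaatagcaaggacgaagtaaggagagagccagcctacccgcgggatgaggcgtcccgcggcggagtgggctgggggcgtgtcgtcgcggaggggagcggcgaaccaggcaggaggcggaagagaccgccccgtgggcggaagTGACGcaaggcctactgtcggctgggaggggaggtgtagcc

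The OPTN window held the NF-kB letters on both strands, 93 to 83 bases before the start, and 3.52% of 35116 windows of the same length held that motif. The TAX1BP1 window held TGACG, 41 to 37 bases before the start, a motif found in 21.2% of windows. In the SQSTM1 window none of the 6 motifs was found. The other windows were searched too. TBK1 held CACGTG, 31 to 26 bases before the RefSeq start (6.34% of windows), and NCOA4 held TGANTCA (6.57%). No GENCODE transcript start lay near that RefSeq start of TBK1. GENCODE begins the gene at 64451880, so the CACGTG match lies inside the annotated gene. The NRF2 motif was found in CALCOCO2 and TOLLIP (10.9% of windows), TGACG in both as well, and CCGGAAG in TOLLIP (8.52%). The NF-kB motif was written after the OPTN sequence had been seen. A match is a description of letters and shows no binding.

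Among the 10 genes, 4 were higher with the tDR, 2 were lower and 4 did not pass the test. OPTN rose the most, 1.57-fold, followed by CALCOCO1 (1.34-fold), SQSTM1 (1.27-fold) and TOLLIP (1.26-fold), and these rises kept their direction under every scaling tried. NCOA4 fell by 12.7% and TAX1BP1 by 11.6%, and both were lower under every scaling tried but not called under scaling to library size alone, upper quartile scaling or background subtraction per kb of span. NBR1, CALCOCO2, WDFY3 and TBK1 were not called. A call is an adjusted p under 0.05 by the edgeR quasi-likelihood test, with Benjamini-Hochberg adjustment over all 17184 genes tested, of which 12.8% were called higher (2206) and 11.4% lower (1962). Under library size alone 19.2% of all genes were higher and 5.28% lower, and 4 and 0 of the members. Upper quartile scaling gave 15.9% and 7.19%, and background subtraction per kb of span 7.45% and 7.29%, with 4 and 0 members each time. A correction for gene length and GC content gave 8.98% and 24.9% of all genes, and 3 and 4 of the members. The median log2 fold change was -0.01 over the 10 members and 0.02 over all genes tested. The length and GC correction moved the median of all genes to -0.09, so member values under it are also given less that median. Library size alone moved the median to 0.10 and upper quartile scaling to 0.07. Less the median of all genes, TAX1BP1 was at -0.19 and NCOA4 at -0.21 in the fit reported and under both of these scalings. With background per kb of span subtracted they were at -0.14 and -0.15. Values of companion genes are not given less the median. In bulk RNA, fewer cells with an mRNA and less of it per cell cannot be told apart.

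**Figure D1:**
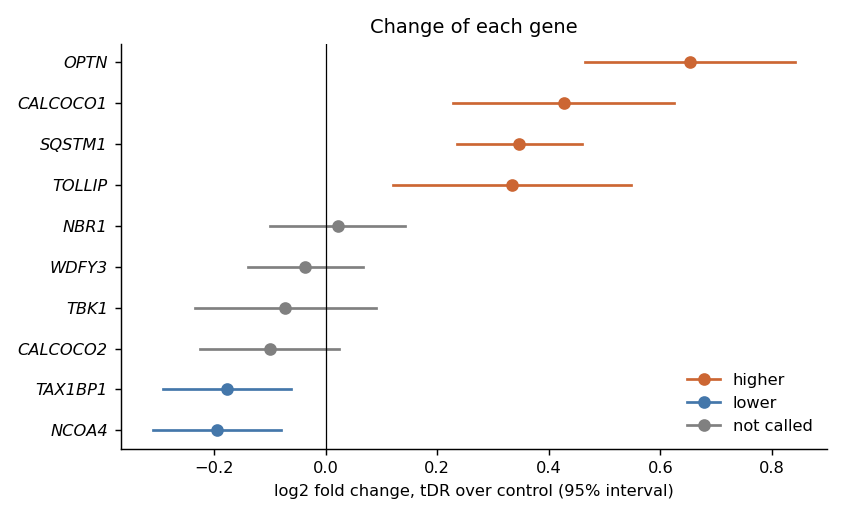
Log2 fold change of each gene (x axis, tDR over control) with its 95% interval from the edgeR fit over 4 against 4 libraries, coloured by call. The intervals of OPTN, CALCOCO1, SQSTM1 and TOLLIP lie above 0, those of TAX1BP1 and NCOA4 below it, and the other 4 include it.

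The members are also set beside genes of similar level, in 2 ranges chosen around them. Of 3960 genes tested with a mean of 20 to 60 CPM, 9.97% were higher and 11.2% lower, and 4 members lie in this range: OPTN, CALCOCO1 and TOLLIP, which rose, and TBK1, which did not pass. Of 2116 genes with 90 to 200 CPM, 4.77% were higher and 28.8% lower. The 6 members in that range were SQSTM1, which rose, TAX1BP1 and NCOA4, which fell, and NBR1, CALCOCO2 and WDFY3. The 2 lower calls among these 6 are therefore near the background of genes at that level. GC content of the longest transcript ran from 44.8% to 58.0% in the 4 members that rose, was 43.1% in NCOA4 and 48.0% in TAX1BP1, and ran from 39.3% to 44.9% in the 4 that did not pass.

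p62, the product of SQSTM1, is the best known of the receptors, and its gene (chromosome 5, 179806398 to 179838078, GRCh38) rose with the tDR. Control replicates 1 to 4 held 110.6, 118.0, 118.7 and 112.2 CPM and tDR replicates 1 to 4 held 142.9, 148.0, 138.8 and 153.4 CPM, with library sizes scaled by TMM. The lowest tDR library was above the highest control library, a separation found in 11.8% of all genes tested. The means were 114.9 ± 4.11 and 145.8 ± 6.33 CPM (SD, n = 4 each), a log2 difference of 0.35 ± 0.056 (SE; edgeR, Benjamini-Hochberg adjusted p = 4e-06). After the length and GC correction the log2 fold change was 0.24, or 0.33 less the median of all genes, and the gene was called under all 17 alternatives tried. MRNIP lies on the opposite strand and overlaps 1582 bases (20.7%) of the exons of SQSTM1; its levels were 29.8 ± 2.44 and 33.0 ± 4.04 CPM (SD, n = 4), and it did not pass. The sources used here do not give whether reads were assigned by strand.

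NBR1 (chromosome 17, 43170481 to 43211689) shares with p62 a PB1 domain, a zinc finger and a ubiquitin-binding domain, and helps p62 to gather cargo. Its level was 103.2, 109.7, 98.4 and 100.5 CPM in control replicates 1 to 4 and 107.0, 110.5, 98.1 and 103.1 CPM in tDR replicates 1 to 4. Both groups covered nearly the same range. The log2 fold change was 0.02, with a 95% interval from -0.10 to 0.14, which excludes the value of SQSTM1. The ratio of SQSTM1 to NBR1 counts does not depend on library scaling. It was 1.07, 1.08, 1.21 and 1.12 in control replicates 1 to 4 and 1.33, 1.34, 1.42 and 1.49 in tDR replicates 1 to 4, with no overlap of the groups. The means were 1.12 ± 0.0629 and 1.40 ± 0.0724 (SD, n = 4). An exact two-sided permutation test gave p = 0.0286, the lowest value possible with 70 assignments. Benjamini-Hochberg adjustment over 4 ratios of members related in sequence gave 0.0381. The ranges of SQSTM1 and NBR1 already kept the ratios of the groups apart, however the libraries of a group are matched. The p-value therefore adds no support beyond the single-gene values.

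Optineurin carries ubiquitin-tagged mitochondria and bacteria and is a substrate of TBK1, and its gene OPTN (chromosome 10, 13099449 to 13138308) had the largest change of the 10. The control libraries held 25.8, 32.0, 30.4 and 26.0 CPM in replicates 1 to 4, and the tDR libraries 48.4, 41.8, 45.1 and 43.8 CPM. Every tDR library was above every control library, by at least the gap between 32.0 and 41.8 CPM. OPTN went from 28.6 ± 3.12 to 44.8 ± 2.79 CPM (SD, n = 4), a log2 difference of 0.65 ± 0.094 (SE; edgeR, Benjamini-Hochberg adjusted p = 4.44e-07), or 1.57-fold with a 95% interval of 1.38 to 1.79. Counts behind these levels were 191 to 265 in controls and 286 to 418 with the tDR, lower than for p62. The call held under all 17 alternatives, with log2 fold changes between 0.57 and 0.74.

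TBK1 (chromosome 12, 64451880 to 64502108), the kinase that acts on optineurin, p62 and NDP52, did not pass. Its control replicates 1 to 4 held 54.3, 47.5, 48.0 and 49.0 CPM and its tDR replicates 49.4, 48.8, 46.4 and 45.2 CPM. The groups overlapped, and the log2 fold change was -0.07 with a 95% interval from -0.23 to 0.09 (edgeR, Benjamini-Hochberg adjusted p = 0.556). Of its 8 listed partners, adaptors, sister kinase and signalling proteins, none was called by edgeR or DESeq2, and 2 had an unadjusted p under 0.05, against 24.3% of all genes called by edgeR in either direction. Their median log2 fold change was 0.13. The most abundant were TRAF3, a ubiquitin ligase (134.4 ± 2.37 and 133.2 ± 13.6 CPM), and MAVS, the adaptor of RNA sensors on mitochondria (99.96 ± 3.36 and 106.6 ± 7.17 CPM; SD, n = 4). MAVS had a log2 fold change of 0.09 and was called higher with library size alone (0.18).

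**Figure D2:**
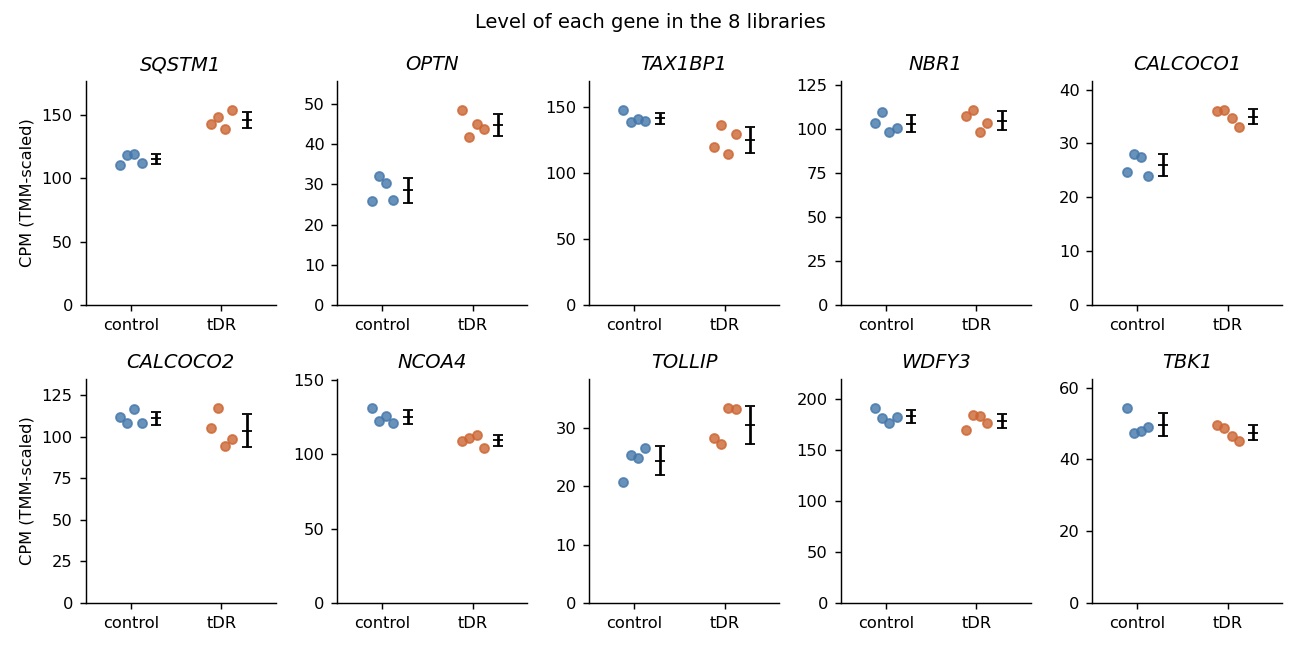
Level of each of the 10 genes in CPM with TMM-scaled library sizes (y axis, from 0), 1 point per library, 4 control and 4 tDR; black bars are the mean ± SD. In SQSTM1, OPTN, CALCOCO1 and TOLLIP every tDR library lies above every control library, and in TAX1BP1 and NCOA4 every one lies below.

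TAX1BP1, CALCOCO2 and CALCOCO1 form 1 family with a shared amino-terminal SKICH domain and a coiled coil, and their mRNAs did not move alike. TAX1BP1, whose protein binds ubiquitin-tagged aggregates and also serves the A20 complex that restrains NF-kB signalling, lies on chromosome 7 (27739331 to 27844564). It held 147.7, 138.7, 141.1 and 139.3 CPM in control replicates 1 to 4 and 120.2, 136.4, 114.3 and 129.8 CPM in tDR replicates 1 to 4. The tDR libraries were all below the controls, as in 10.8% of genes tested, but replicate 2 of the tDR group was only just below the lowest control. TAX1BP1 went from 141.7 ± 4.12 to 125.2 ± 9.84 CPM (SD, n = 4), a log2 difference of -0.18 ± 0.057 (SE; edgeR, Benjamini-Hochberg adjusted p = 0.0179). It was not called without tDR replicate 3 (-0.14; adjusted p = 0.104 by edgeR), with library size alone (-0.09), with upper quartile scaling (-0.13) or with background per kb of span subtracted (-0.13). After the length and GC correction it was at -0.31 and called, or -0.22 less the median of all genes, and the adjusted p by edgeR or DESeq2 ranged from 9.32e-06 to 0.238 over the 17 alternatives. JAZF1 overlaps 415 bases of its exons on the opposite strand and stood at 123.9 ± 12.8 and 133.8 ± 10.7 CPM (SD, n = 4).

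CALCOCO2 (chromosome 17, 48830988 to 48866522) encodes NDP52, a receptor for bacteria and mitochondria. Its levels were 112.2, 108.1, 116.5 and 108.2 CPM in control replicates 1 to 4 and 105.1, 117.4, 94.2 and 98.6 CPM in tDR replicates 1 to 4. The tDR libraries spread on both sides of the controls, with replicate 2 highest of all 8. Its log2 fold change was -0.10, with a 95% interval from -0.23 to 0.02, and it did not pass (edgeR, Benjamini-Hochberg adjusted p = 0.245). It was at -0.17 without tDR replicate 2 and -0.06 without tDR replicate 3, and not called in either fit. After the length and GC correction it was called, at -0.20 or -0.11 less the median of all genes (edgeR, Benjamini-Hochberg adjusted p = 0.00785).

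CALCOCO1 (chromosome 12, 53708517 to 53727745), named first as a coactivator of nuclear receptors and known also as a receptor for endoplasmic reticulum and Golgi, had the lowest level of the family. Control replicates 1 to 4 held 24.7, 28.1, 27.5 and 24.0 CPM, and tDR replicates 1 to 4 held 36.1, 36.1, 34.7 and 33.0 CPM. The groups were apart, and the 4 tDR libraries lay within a narrower range than the controls. CALCOCO1 went from 26.1 ± 2.04 to 35.0 ± 1.46 CPM (SD, n = 4), a log2 difference of 0.43 ± 0.099 (SE; edgeR, Benjamini-Hochberg adjusted p = 0.000967). All 17 alternatives called it.

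Count ratios within the family restate the single-gene values without any library scaling. CALCOCO1 over CALCOCO2 was 0.221, 0.260, 0.236 and 0.221 in control replicates 1 to 4 and 0.343, 0.308, 0.369 and 0.335 in tDR replicates 1 to 4. CALCOCO1 over TAX1BP1 went from 0.184 ± 0.0172 to 0.281 ± 0.0248 (SD, n = 4). For each of these 2 ratios the groups did not overlap (exact two-sided permutation p = 0.0286, and 0.0381 after Benjamini-Hochberg adjustment over the 4 ratios). For both ratios this outcome was fixed by the single-gene values. CALCOCO1 was higher, and TAX1BP1 lower, in every tDR library than in every control library. The range of CALCOCO2 was too narrow to close the gap in CALCOCO1, however the libraries of a group are matched. The p-values of these 2 ratios therefore add no support, though both ratios are among the 4 adjusted. CALCOCO2 over TAX1BP1 was 0.786 ± 0.0281 and 0.830 ± 0.0515 (SD, n = 4; exact two-sided permutation p = 0.257, adjusted p = 0.257), and its groups overlapped. A difference between the changes of CALCOCO2 and TAX1BP1 was thus not found, although 1 passed the test and the other did not.

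NCOA4 (chromosome 10, 46005088 to 46030714), the ferritin receptor, had the largest fall of the 10 in the fit reported, close to that of TAX1BP1 (-0.18). After the length and GC correction the order was reversed, with NCOA4 at -0.26 and TAX1BP1 at -0.31. NCOA4 held 131.1, 122.4, 125.9 and 121.0 CPM in control replicates 1 to 4 and 108.9, 111.1, 113.1 and 104.3 CPM in tDR replicates 1 to 4. The highest tDR library was below the lowest control library. NCOA4 went from 125.1 ± 4.51 to 109.3 ± 3.78 CPM (SD, n = 4), a log2 difference of -0.20 ± 0.058 (SE; edgeR, Benjamini-Hochberg adjusted p = 0.00928). Without tDR replicate 4 it was at -0.17 and just missed the call (edgeR, Benjamini-Hochberg adjusted p = 0.0506), and over all 17 alternatives adjusted p ranged from 0.000172 to 0.153. With library size alone it was at -0.11, and at -0.14 with upper quartile scaling and with background per kb of span subtracted. NCOA4 and SQSTM1 have processed copies, which held few counts over all 8 libraries: 8 in NCOA4P1, 7 in NCOA4P2 and 12 in SQSTM1P1.

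Of 9 tested genes of ferritin and iron handling 1 was called higher and 2 lower, near the 24.3% of all genes called in either direction, and the median was -0.11 on the log2 scale. FTL, the light chain of ferritin, rose from 71.0 ± 4.05 to 94.7 ± 4.91 CPM (SD, n = 4), while the heavy chain gene FTH1 stood at 105.2 ± 12.2 and 112.1 ± 2.46 CPM and was not called. After the length and GC correction FTL was at 0.22 in place of 0.41 and still called. The median of all genes was then -0.09 in place of 0.02. FTH1 falls outside the naming rule and was chosen after its value was seen. TFRC, the transferrin receptor that brings iron in, fell from 196.3 ± 10.7 to 169.4 ± 10.3 CPM, a call lost with library size alone (-0.13). PCBP2, an iron chaperone and RNA-binding protein, was lower at -0.18 on the log2 scale, a call lost under 6 of 17 alternatives, among them the fits without control replicate 4 and without tDR replicate 3 or 4 (each -0.16). Ferritin genes have many processed copies, and the sources used here do not say how multi-mapped reads were treated, so their single values are uncertain.

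TOLLIP (chromosome 11, 1274371 to 1309654) encodes an adaptor of Toll-like and interleukin-1 receptors that also carries ubiquitin-tagged aggregates to autophagosomes. Control replicates 1 to 4 held 20.8, 25.3, 24.8 and 26.5 CPM and tDR replicates 1 to 4 held 28.3, 27.2, 33.4 and 33.2 CPM. The groups were apart by less than 1 CPM, between control replicate 4 and tDR replicate 2. TOLLIP went from 24.4 ± 2.48 to 30.6 ± 3.25 CPM (SD, n = 4), a log2 difference of 0.33 ± 0.11 (SE; edgeR, Benjamini-Hochberg adjusted p = 0.0166). It was not called without control replicate 1 (0.26), without tDR replicate 3 (0.28) or 4 (0.29), or after the length and GC correction (0.24, or 0.33 less the median of all genes); adjusted p ranged from 0.00271 to 0.0849 over the 17 alternatives. Of 6 partners in endosomes and interleukin-1 signalling 2 rose and 4 were not called, beside 12.8% of all genes called higher. The list median was 0.25, with values from -0.13 (IRAK4) to 0.57 (IL1R1, at 3.45 CPM in controls), neither of them called. TOM1, which binds TOLLIP on endosomes, rose from 48.0 ± 3.45 to 58.8 ± 0.817 CPM (SD, n = 4). The kinase gene IRAK1 rose from 343.5 ± 27.3 to 386.6 ± 15.0 CPM (SD, n = 4). IRAK1 was not called after the length and GC correction (0.07, with the median of all genes at -0.09). It was also not called without control replicate 1 (0.11) or tDR replicate 2 (0.14).

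WDFY3 (chromosome 4, 84669610 to 84966391), also called ALFY, is a very large scaffold that links p62-bound aggregates to the autophagy machinery. Its levels were 190.8, 181.0, 176.2 and 182.3 CPM in control replicates 1 to 4 and 169.1, 184.1, 182.9 and 176.1 CPM in tDR replicates 1 to 4. The groups overlapped almost fully. The log2 fold change was -0.04, with a 95% interval from -0.14 to 0.07 (edgeR, Benjamini-Hochberg adjusted p = 0.65). After the length and GC correction it was -0.17 and called, or -0.08 less the median of all genes (edgeR, Benjamini-Hochberg adjusted p = 0.00613), while library size alone gave 0.05, so no direction is given for this gene.

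Set against each other per kb of exon, NCOA4 was the most abundant of the 10 in both groups, at 30.7 ± 1.11 CPM per kb in controls and 26.8 ± 0.926 with the tDR (SD, n = 4). In controls TAX1BP1 (15.5 ± 0.449 CPM per kb) and SQSTM1 (15.0 ± 0.537) came next, with overlapping ranges. CALCOCO2 (13.4 ± 0.476) and NBR1 (12.2 ± 0.587) overlapped each other, as did WDFY3 (10.8 ± 0.360) and TBK1 (10.4 ± 0.659). OPTN (5.56 ± 0.607), TOLLIP (4.07 ± 0.414) and CALCOCO1 (2.93 ± 0.229) were lowest and did not overlap. With the tDR, SQSTM1 stood alone in second place at 19.1 ± 0.827 CPM per kb, and TAX1BP1 (13.7 ± 1.07) overlapped CALCOCO2 (12.5 ± 1.21). The lengths are those of all annotated exons of a gene joined, so genes with many rare exons appear lower.

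The 8 receptors summed to 674.9 ± 11.9 CPM in controls and 699.1 ± 23.2 CPM with the tDR (SD, n = 4), and within this sum the shares shifted. SQSTM1 held 17.0% ± 0.466 of it in controls and 20.9% ± 0.735 with the tDR, and TAX1BP1 21.0% ± 0.662 and 17.9% ± 0.880. The most counted receptor was TAX1BP1 in all 4 control libraries and SQSTM1 in all 4 tDR libraries. OPTN went from 4.23% ± 0.409 to 6.42% ± 0.535, and NCOA4 from 18.5% ± 0.610 to 15.7% ± 0.840. These shares restate the single-gene values and were not tested.

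**Figure D3:**
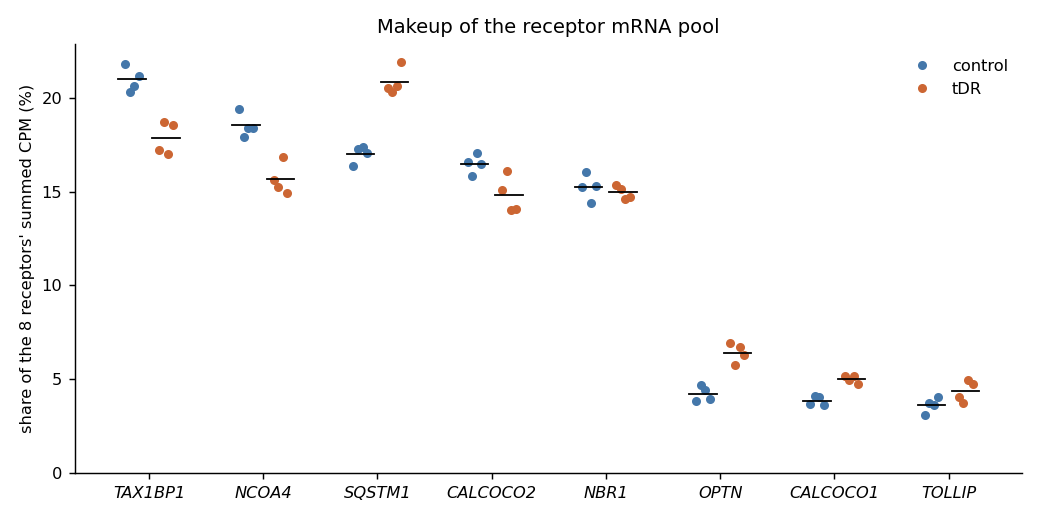
Share of each receptor in the summed CPM of the 8 receptors (y axis, percent), 1 point per library, with lines at the means of the 4 control and 4 tDR libraries. SQSTM1 lies below TAX1BP1 in controls (17.0% and 21.0%) and above it with the tDR (20.9% and 17.9%).

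The rest of the pathway was read from 13 lists of 109 further genes, of which 99 were tested. Of these 6 were higher and 12 lower, beside 12.8% and 11.4% of all genes, and the median log2 fold change was -0.01. With library size alone 20 were higher and 4 lower, beside 19.2% and 5.28% of all genes, and with the length and GC correction 4 and 27, beside 8.98% and 24.9%. The shares among these genes were thus near, or for higher calls under, those of all genes.

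Among the ATG8 proteins that receptors bind, none of 4 tested genes was called by edgeR or DESeq2, and 1 (GABARAPL1) had an unadjusted p under 0.05. MAP1LC3B, which encodes LC3B, stood at 45.9 ± 3.92 and 46.9 ± 0.866 CPM (SD, n = 4), and GABARAPL1 at 15.3 ± 1.55 and 19.1 ± 1.38 CPM; GABARAPL1 was called under 4 of 17 alternatives, among them the fit without control replicate 1 (0.37). GABARAPL2 was listed at 0 in all 8 libraries and GABARAP was under 1 CPM, and since both are abundant in most cells these values set no limit on their level. Of 10 enzymes that attach or release ATG8 proteins 2 fell, beside 11.4% of all genes called lower. ATG3, the E2-like enzyme, went from 112.0 ± 8.27 to 83.7 ± 6.44 CPM, and ATG12, part of the E3-like complex, from 48.9 ± 1.06 to 41.0 ± 2.52 CPM (SD, n = 4). ATG12 was not called with library size alone (-0.17), with upper quartile scaling or background per kb of span subtracted (each -0.20), or without tDR replicate 1 (-0.22). Of 12 initiation genes 1 rose and 11 were not called, beside 12.8% of all genes called higher. ULK1, the starting kinase, rose from 38.0 ± 4.02 to 48.3 ± 4.96 CPM. ULK1 was at 0.35, and at 0.22 and still called after the length and GC correction, with the median of all genes at -0.09. RB1CC1, whose product FIP200 binds p62 and other receptors, stood at 148.8 ± 7.06 and 137.2 ± 7.25 CPM and was called lower without control replicate 3 (-0.17) and after the length and GC correction (-0.15). AMBRA1, a regulator of the complex, had a log2 fold change of 0.01.

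Other selective autophagy receptors, most of them anchored in an organelle membrane, had 1 higher and 4 lower genes of 15 tested, with a median of -0.08. Of all genes tested 12.8% were higher and 11.4% lower. At 90 to 200 CPM, where SEC62 and RTN3 lie, 28.8% were lower. SEC62, a translocation protein and receptor of the endoplasmic reticulum, fell from 196.0 ± 21.6 to 159.6 ± 6.65 CPM, and FUNDC1, a mitochondrial receptor, from 29.8 ± 4.14 to 22.2 ± 1.42 CPM (SD, n = 4). BNIP3, a mitochondrial receptor induced by hypoxia, was lower at -0.24, a call lost without tDR replicate 2, 3 or 4 (-0.23, -0.21 and -0.23) and under 3 other alternatives. RTN3, a reticulon that clears tubules of the endoplasmic reticulum, was lower too (-0.15; edgeR, Benjamini-Hochberg adjusted p = 0.0498); it falls outside the naming rule and was chosen after its value was seen. RETREG2, of the reticulophagy regulator family, was higher at 0.30, a call lost under 7 of 17 alternatives, 5 of which leave out a library: control replicates 1, 2 and 4 (0.25, 0.26 and 0.27) and tDR replicates 1 and 2 (0.24 and 0.27). Of 6 genes around the ubiquitin tagging of mitochondria 1 fell and 5 were not called, beside 11.4% of all genes called lower. Their median was -0.05. VCP, the segregase that pulls tagged proteins out of membranes, was lower at -0.17, and not called with library size alone (-0.08), upper quartile scaling (-0.11) or background per kb of span subtracted (-0.11). MFN2, which fuses and tethers mitochondria, stood at 177.8 ± 11.0 and 177.1 ± 1.65 CPM (SD, n = 4) and was not called.

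p62 binds KEAP1 and so frees the transcription factor NRF2, of which SQSTM1 is itself a target. Of 8 tested genes of this axis 1 rose, 1 fell and 6 were not called, with a median of -0.03. Of all genes tested 12.8% were higher and 11.4% lower. HMOX1, the heme oxygenase, rose from 16.8 ± 1.70 to 26.5 ± 1.83 CPM (SD, n = 4) and was called under all 17 alternatives. NFE2L2, the gene for NRF2, was lower at -0.17 and was not called under 11 of 17 alternatives, 6 of which leave out a library: control replicates 1, 3 and 4 (-0.17, -0.19 and -0.16) and tDR replicates 1, 2 and 4 (-0.17, -0.19 and -0.15). Of 7 signalling proteins that bind p62 none was called by edgeR or DESeq2, and 1 had an unadjusted p under 0.05. The most abundant were MTOR (266.0 ± 14.1 and 283.0 ± 16.4 CPM) and RPTOR (264.2 ± 8.76 and 262.3 ± 17.7 CPM), both of the growth complex mTORC1. MTOR was called higher with library size alone (0.17) and upper quartile scaling (0.14), and RPTOR lower after the length and GC correction (-0.14). None of 3 genes of the A20 complex was called by either tool, and 1 (TNIP1) had an unadjusted p under 0.05. TNIP1, which encodes the ubiquitin-binding partner ABIN1, had a log2 fold change of -0.13 and was called without control replicate 1 (-0.17), after the length and GC correction (-0.22) and with no filter on low counts (-0.16). RNF11 was at 0.14 and called higher with library size alone (0.23). Of 4 ubiquitin genes 2 fell, RPS27A (-0.24) and UBB (-0.15), beside 11.4% of all genes called lower. UBB was not called under 8 of 17 alternatives, which include the fits without control replicate 2 or 4 (-0.11 and -0.13) and without tDR replicate 3 or 4 (-0.13 and -0.14). Of 7 transcription factors of autophagy genes none was called by edgeR and 1 (FOXO3) by DESeq2, and 2 had an unadjusted p under 0.05. FOXO3 was at -0.14, just outside the threshold (edgeR, Benjamini-Hochberg adjusted p = 0.0504) and called under 6 of 17 alternatives, 2 of them the fits without control replicate 2 (-0.17) and tDR replicate 1 (-0.16), and FOXO1 was at 0.04.

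**Figure D4:**
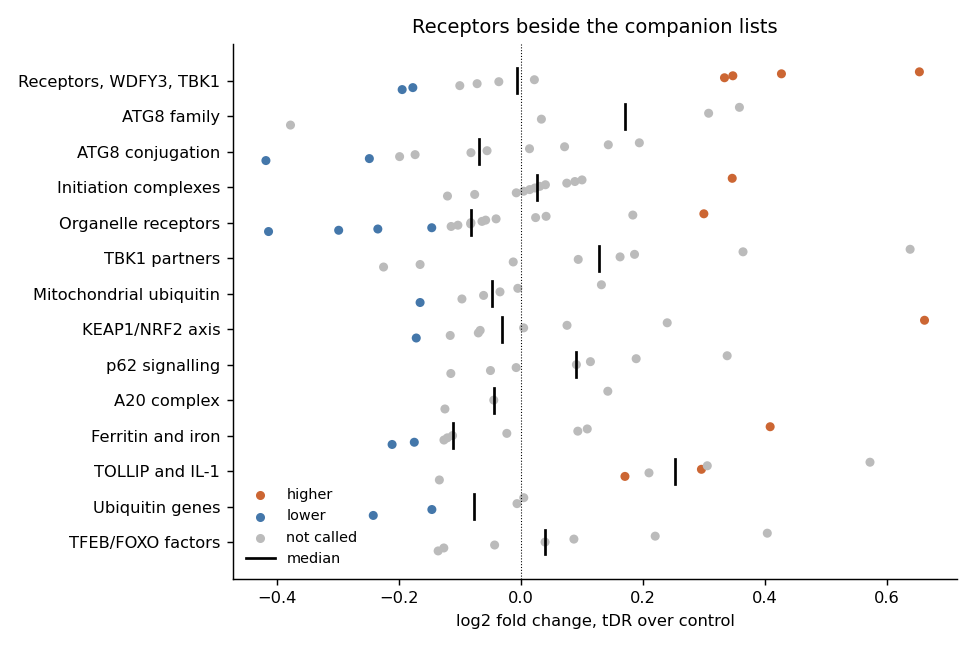
Log2 fold change (x axis, tDR over control) of each tested gene in the 10 members and the 13 companion lists (rows), coloured by call, with the median of each row as a black line. OPTN at 0.65 and HMOX1 at 0.66 are the rightmost called genes, and ATG3 at -0.42 and FUNDC1 at -0.41 the leftmost.

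Candidates for likeness were 6898 genes with a symbol whose mean CPM had a log2 above 5. The genes whose profile over the 8 libraries was most like 3 of the members were picked from them. They had the smallest distance between log2 CPM values, each gene set to its own mean. For SQSTM1 these were CCDC136 (distance 0.131), NRBP1 (0.136) and PACS1 (0.145), with log2 fold changes of 0.30, 0.38 and 0.33. OPTN had no neighbour as near: ANKRD52 (0.349), PRICKLE2 (0.372) and MKNK2 (0.373) came first, with log2 fold changes of 0.46, 0.54 and 0.58. For TAX1BP1 they were SSR3 (0.0937), ZDHHC3 (0.111) and DCLRE1C (0.12), with log2 fold changes of -0.16, -0.19 and -0.15. Distances of this kind find the same pattern in any genes that differ between the groups by a like amount, and are given as a description.

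**Figure D5:**
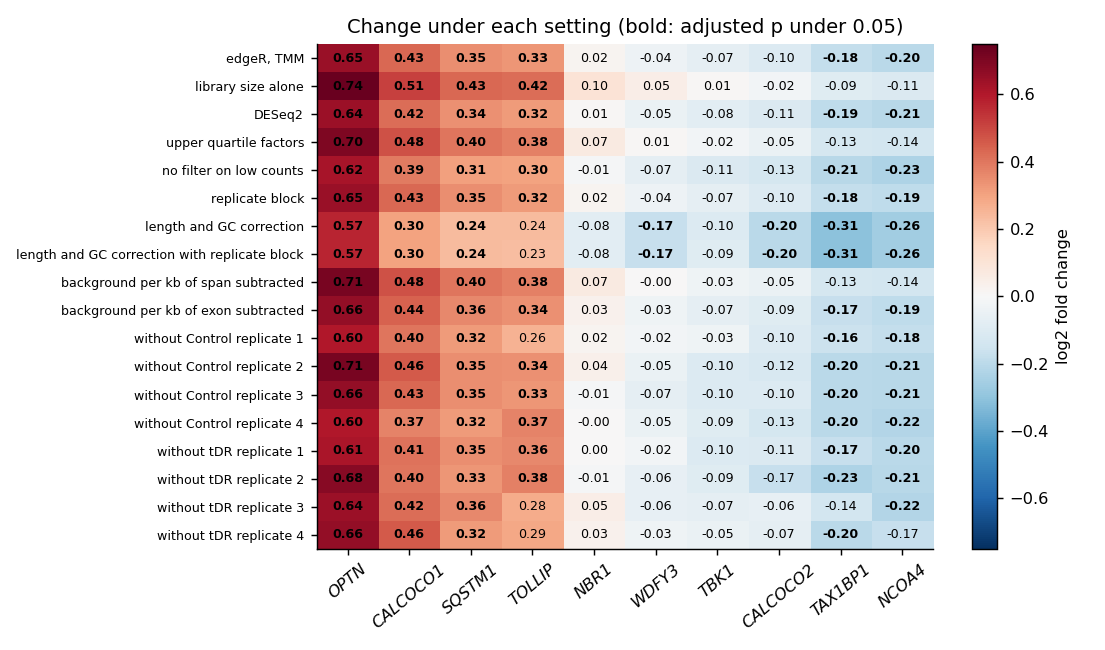
Log2 fold change of each gene (columns) under the fit reported and the 17 alternatives (rows); colour and number give the value, and bold marks an adjusted p under 0.05. OPTN, CALCOCO1 and SQSTM1 are bold in every row, while TOLLIP, TAX1BP1 and NCOA4 lose the mark in 4 or 5 rows each.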

How the data were processed

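The data are gene-level read counts in whole numbers, deposited by the authors without normalization with 1 column per library. Per the labels' protocols, RNA was extracted with TRIzol and libraries were made with a stranded low-input total RNA kit. The tools were STAR 2.7.8a, featureCounts 2.0.2, cutadapt 2.10 and DESeq2 1.30.1 and the builds GRCh38.p13 and hg38, per the submitters' processing notes. The sources used here do not give the strand setting, annotation release or treatment of multi-mapped reads. GENCODE 29 on GRCh38 gave positions and lengths for 94.1% of genes, matched by identifier, current symbol or GENCODE symbol. Overlapping and near-identical genes are therefore uncertain.

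In edgeR 4.0.16 (R 4.3.3), a quasi-likelihood fit to all 8 libraries had a term for group alone, TMM scaling, edgeR's filter on low counts and Benjamini-Hochberg adjustment over 17184 genes, called under 0.05. CPM use TMM-scaled library sizes. The steps were tested on simulated counts. Alternatives were DESeq2 1.42.0, other scalings, no filter, the replicate block, a spline correction for exonic length and GC content (97.1% of tested genes had both), subtraction of background estimated from olfactory receptor genes per kb of gene span or, chosen after seeing the data, of exon, and each library left out. No 2 libraries agreed within counting noise (chi-square 2.14 to 8.33 per degree of freedom). Named companion genes are the called genes of each list, at most 4 by smallest p, and the most abundant 1 or 2 where fewer than 2 were called. One listed gene is not reported here. The members and lists were chosen with earlier results of these data known.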

Additional observations from a re-analysis of the deposited data

Results flagged for a closer look

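None of the 10 members had a library far from the rest of its group. Among the named companion genes 1 did: RB1CC1 held 138.3 CPM in control replicate 3, where the other controls held 151.0 to 153.3 CPM. The gap to the nearest library took up more of the group's range than Dixon's limit for 4 values, which chance passes in about 1 of 20 groups; 80 groups were looked at. Without that library RB1CC1 was called lower (-0.17).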

How the results depend on the processing

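Over 17 alternatives, OPTN, CALCOCO1 and SQSTM1 kept direction and call in each. Of 170 values for the 10 members 144 kept both, 13 lost the call, 4 gained one and 9 changed sign; for the 30 named companion genes these were 405, 50, 23 and 32 of 510. With library size alone TAX1BP1 (-0.09) and NCOA4 (-0.11) lost their calls and WDFY3 (0.05) and TBK1 (0.01) changed sign. With upper quartile factors TAX1BP1 was at -0.13, NCOA4 at -0.14 and WDFY3 at 0.01. The median of all genes was 0.10 and 0.07 in these fits, against 0.02 in the fit reported. Less that median, each of these fits gave -0.19 for TAX1BP1, -0.21 for NCOA4, -0.05 for WDFY3 and -0.09 for TBK1. With background per kb of span subtracted TAX1BP1 was at -0.13 and NCOA4 at -0.14. The length and GC correction ended the call of TOLLIP (0.24, and 0.23 with the replicate block). It made calls of CALCOCO2 (-0.20, and -0.20 with the block) and WDFY3 (-0.17, and -0.17). NBR1 turned negative under it (-0.08, and -0.08 with the block) and with no filter (-0.01). Less the median of all genes, the fit reported and the correction gave 0.32 and 0.33 for TOLLIP and -0.12 and -0.11 for CALCOCO2. For WDFY3 these were -0.05 and -0.08, and for NBR1 0.01 and 0.00. Leaving out 1 library gave -0.23 to -0.14 for TAX1BP1, -0.22 to -0.17 for NCOA4, 0.26 to 0.38 for TOLLIP, -0.17 to -0.06 for CALCOCO2 and -0.01 to 0.05 for NBR1. Members called lower were 2, but 0 with library size alone, upper quartile factors or span background subtracted, 4 with the length and GC correction with or without the block, and 1 to 2 without 1 library. Over all genes, lower calls were 907 with library size, 1235 with upper quartile factors, 1101 with span background subtracted, and 4152 (4067 with the block) after the correction; higher calls were 1126 with span background subtracted and 1415 with the correction and block. Companion genes called higher and lower were 20 and 4 with library size, 11 and 5 with upper quartile factors, 4 and 27 with the correction and 4 and 26 with the block added; 5 were lower with span background subtracted. Companion genes not called in the fit reported changed sign: with the correction AMBRA1 (-0.10), FOXO1 (-0.06), MAP1LC3B (-0.07), MAVS (-0.05) and MTOR (-0.05), alike with the block; with no filter AMBRA1 (-0.02) and MAP1LC3B (-0.00); with library size RPTOR (0.08), TRAF3 (0.07) and MFN2 (0.08), with upper quartile factors 0.04, 0.04 and 0.05, with span background 0.03, 0.03 and 0.05, and RPTOR and MFN2 0.00 with exon background; and without 1 library AMBRA1 (-0.02 to 0.03), FOXO1 (-0.03 to 0.08), MFN2 (-0.04 to 0.03), MAP1LC3B (-0.02 to 0.08), RPTOR (-0.04 to 0.03) and TRAF3 (-0.09 to 0.04). The correction gave lower values for UBB (-0.31), PCBP2 (-0.30), NFE2L2 (-0.27) and VCP (-0.27). These and the companion values above are not less the median of all genes. That median was -0.09 with the correction and 0.02 in the fit reported. The causes were not tested. Correlations of same-numbered libraries' deviations were -0.03 to 0.07, which cannot decide whether these libraries share more than a number. The replicate block left 2040 genes higher and 1834 lower and ended no member's call. Without any 1 library the 4 ratios kept direction; at 4 against 3 no test of them was made.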
